A study of Sus scrofa with 12 samples.

Results

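The mRNA levels of 6 complement genes, C1R, C1S, C3, CFD, C7 and C4BPA, were described in pig aortic valvular interstitial cells, which are fibroblast-like and fill the leaflets of the heart valve. Members were all probe sets whose only gene symbol in the array's annotation was one of these names. This gave 7 probe sets, 2 of them for C7, and 6 genes among the 6765 genes that had a probe set with a single symbol. The levels of all 6 genes were lower in cells passaged on plastic than in cells taken straight from the valve. After 24 h of TGF-β1 the levels of C1R and C1S fell further, with or without same-numbered arrays being compared with each other. The calls for C3, CFD and 1 of the 2 C7 probe sets depended on that choice.

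Complement is a cascade of blood and tissue proteins that tags microbes and damaged cells, attracts leukocytes and punches pores in membranes. The classical branch starts when C1q binds a surface and the proteases C1r and C1s are activated in turn. C1s then cleaves C4 and C2, and the resulting enzyme cleaves C3. The alternative branch amplifies C3 cleavage through factor B, which is cut by factor D, the product of CFD. Both branches lead to the membrane attack complex, to which C7 belongs. C4b-binding protein, whose alpha chain is encoded by C4BPA, is a soluble inhibitor that speeds the decay of the classical enzyme. The liver makes most circulating complement, and fibroblasts and macrophages are known local sources of several components.

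Adult pig valves had been digested with collagenase II. The 12 Affymetrix arrays formed 4 groups of 3 biological replicates. Untreated P2 cells had been passaged 2 times and held on plastic plates in medium with 1% fetal bovine serum. The TGF-β1 groups were P2 cells given porcine TGF-β1, a cytokine that drives fibroblasts to become contractile, matrix-producing myofibroblasts, at 5 ng/ml for 8 h or for 24 h. All P2 groups were collected together on day 3 of culture. P0 cells were freshly isolated, uncultured and untreated. Passage, plastic, serum and the time since collagenase digestion therefore cannot be told apart in the comparison of P2 with P0 cells. The labels do not say whether the replicates came from separate pigs, so the p-values measure the spread between these samples only.

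Expression is given per probe set on a log2 scale, on which a difference of 1 is a 2-fold change. Levels of different probe sets are not comparable with each other, because each binds its target with its own efficiency. Each array had between 16564 and 17247 probe sets over log2 4, and arrays of the same group correlated at 0.982 to 0.994. The control probe sets of the array had a 95th percentile of log2 4.58. All 7 complement probe sets were over log2 4 in all 12 arrays, and their lowest group mean was 5.36. The P2 arrays numbered 3 stood apart in endothelial genes, with a mean over the 12 listed endothelial markers of 5.43 to 5.63 in the 3 P2 groups, against 6.75 to 7.42 in the other 6 P2 arrays. Results of the complement genes among P2 groups are therefore also given without these 3 arrays where that changes a call.

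**Figure D1:**
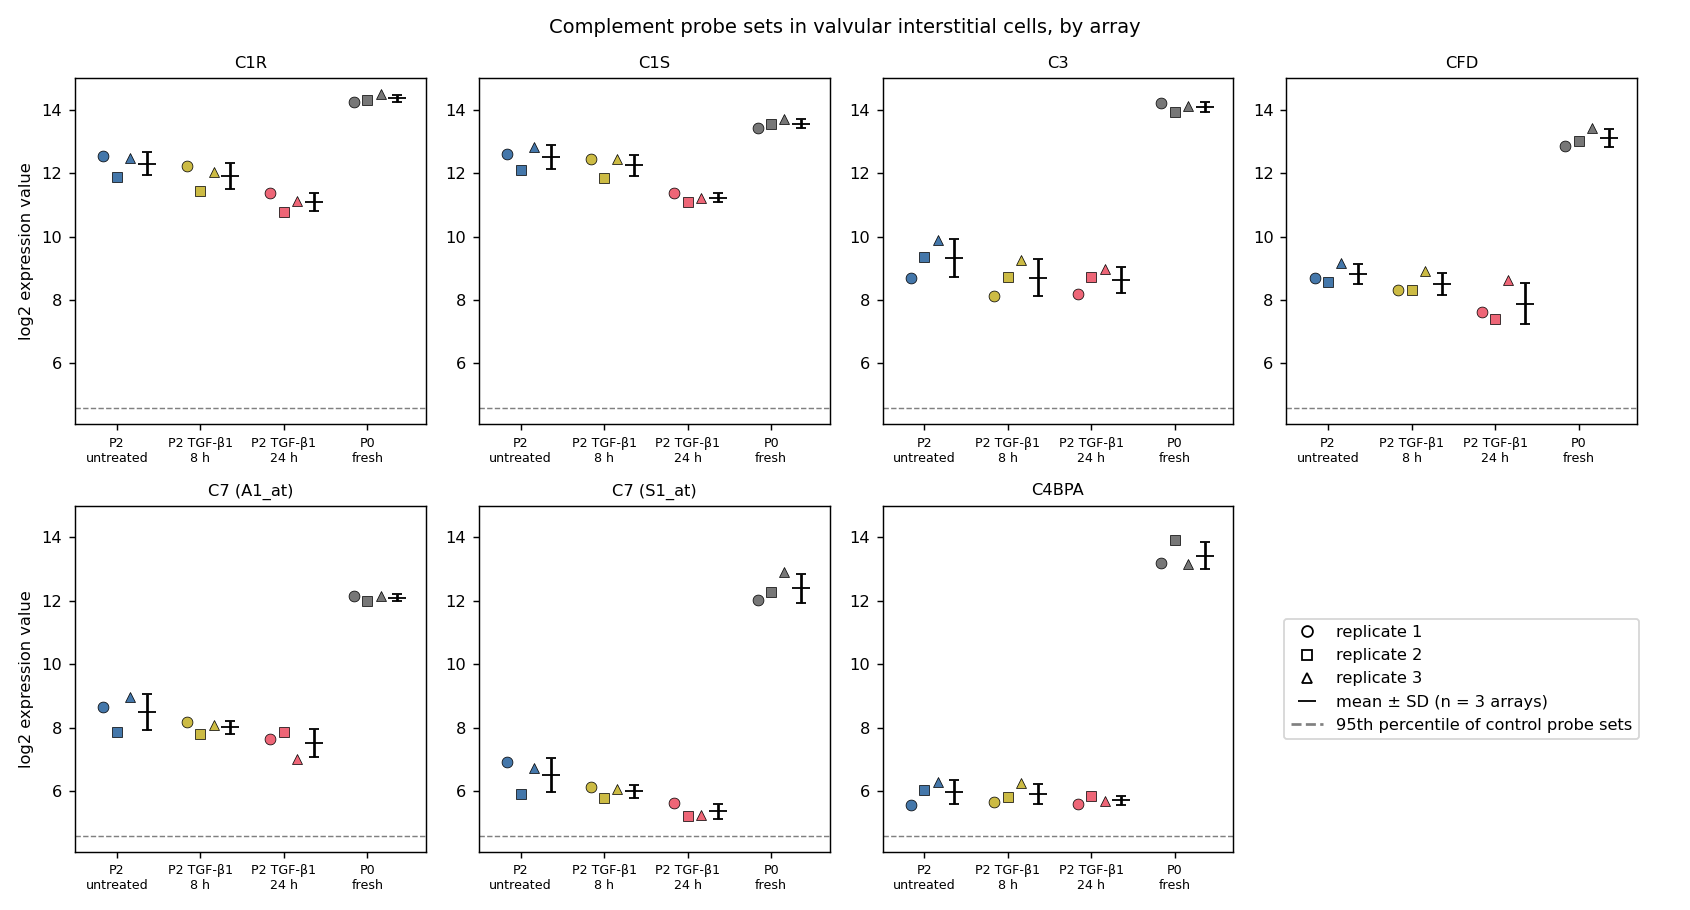
Log2 expression value of each complement probe set on each array, by group, with the group mean and SD (3 arrays per group) and the 95th percentile of the control probe sets as a dashed line. The P0 arrays lie above every P2 array in all 7 panels, and the group means run downward from untreated cells through 8 h to 24 h of TGF-β1.

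Culture was accompanied by lower mRNA of every member gene. All 7 probe sets were called lower in untreated P2 cells than in P0 cells, against 25.8% of all 17638 probe sets tested. The P2 and P0 arrays did not overlap in 7 of 7, with the P2 arrays below, against 28.3% of all tested. Their median log2 difference was -4.29, against 0.07 over all probe sets tested. The genes were chosen with earlier results of these data known. The counts set against all probe sets, here and below, therefore describe the chosen genes and are not independent support. Among the 7 probe sets the difference was largest for that of C4BPA and smallest for that of C1S, at -7.47 and -1.05. Calls rest on limma with Benjamini-Hochberg adjustment over all probe sets tested, at an adjusted p under 0.05. In RNA from a cell mixture, fewer cells that make a transcript and less transcript per cell cannot be told apart.

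The genes of the C1 proteases changed least. C1R, the protease that activates C1s, had values of 12.55, 11.88 and 12.46 in untreated P2 cells, against 14.25, 14.32 and 14.49 in P0 cells. Every P2 value lay below every P0 value. The log2 difference was -2.06 ± 0.23 (SE, 3 arrays per group), or 4.16-fold lower, with a limma adjusted p of 8.81e-06. C1S, the protease that cleaves C4 and C2, had values of 12.62, 12.10 and 12.83 in untreated P2 cells, against 13.43, 13.56 and 13.70 in P0 cells. The groups again did not overlap. Its log2 difference was -1.05 ± 0.20, or 2.07-fold lower, with a limma adjusted p of 0.000744.

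C3, the protein on which all branches converge, had values of 8.70, 9.37 and 9.89 in untreated P2 cells, against 14.23, 13.93 and 14.13 in P0 cells. The P0 arrays were close together and the P2 arrays were spread over more than a log2 unit, but the groups were far apart. C3 mRNA was 27.4-fold lower in P2 cells (log2 difference -4.77 ± 0.33 SE, limma adjusted p = 1.64e-07). CFD, the gene of factor D, the protease that cuts factor B, had values of 8.71, 8.57 and 9.16 in untreated P2 cells, against 12.86, 13.02 and 13.42 in P0 cells. The gap between the groups was several times the spread within them. CFD was 19.6-fold lower in P2 cells (log2 difference -4.29 ± 0.30 SE, limma adjusted p = 1.79e-07).

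C7, a terminal component that joins the growing attack complex and anchors it to the membrane, was read by 2 probe sets, named here by the endings of their names, A1_at and S1_at. A1_at had values of 8.65, 7.86 and 8.98 in untreated P2 cells, against 12.16, 11.99 and 12.15 in P0 cells. S1_at had values of 6.92, 5.91 and 6.72 in untreated P2 cells, against 12.02, 12.28 and 12.91 in P0 cells. Both separated the groups completely. The probe sets differed in the size of the change, which was 12.2-fold lower for A1_at (log2 difference -3.60 ± 0.27 SE, limma adjusted p = 3.27e-07) and 59.2-fold lower for S1_at (-5.89 ± 0.27 SE, limma adjusted p = 7.03e-09). The size of the change in C7 is therefore uncertain.

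C4BPA had values of 5.56, 6.04 and 6.30 in untreated P2 cells, against 13.19, 13.92 and 13.18 in P0 cells. No other complement gene measured here had so wide a gap between the groups. The log2 difference of -7.47 ± 0.24 SE corresponds to 177-fold lower mRNA (limma adjusted p = 4.98e-10), and it ranked 6th from the lowest among 6014 genes. The corresponding ranks were 41 for C3, 57 for CFD, 96 for C7, 324 for C1R and 748 for C1S. The rank of C7 is that of A1_at, its brighter probe set, and the S1_at difference of -5.89 was wider than those of C3 and CFD. The annotation gives the C4BPA probe set the Entrez number 396982, which RefSeq (assembly Sscrofa11.1) lists under C4BPA with the synonym APOR, the pig apolipoprotein R. RefSeq holds 2 neighbouring pig genes with the symbol C4BPA, so which copy this probe set reads is uncertain. C4BPB, the gene of the beta chain, did not pass the filter on low values, with a mean of 2.93 in P0 cells.

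In the RefSeq annotation of the pig genome (Sscrofa11.1) some of these genes lie beside other complement genes. C1R and C1S are direct neighbours, with C1RL next to C1R. The C4BPA entry lies between its other copy, which neighbours C4BPB, and the complement regulators CD55 and CR1. C6 lies near C7, while the nearest genes of C3 and CFD are not complement genes.

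The rest of the cascade was described with a list of 53 other complement genes, of which 27 were on the array with a single symbol and 21 passed the filter. In untreated P2 cells 13 of the 21 were called lower than in P0 cells, 1 was called higher and 7 were not called, with a median log2 difference of -1.07. Of the 13, CD55 and CR1 passed the filter through the P0 arrays and so had to be lower, and without them 11 of 19 were called lower. Over all probe sets tested, 25.8% were called lower and 33.6% were called higher. The genes for the classical branch below C1 were among those called lower. C4A, the gene of C4, had values of 5.07, 5.09 and 6.28 in untreated P2 cells, against 10.84, 11.49 and 11.93 in P0 cells (log2 difference -5.94 ± 0.34 SE, limma adjusted p = 4.21e-08). C2, the protease partner of C4, differed by -2.68 ± 0.25 on the log2 scale. C1QA and C1QC, chains of the recognition molecule C1q that macrophages are known to make, differed by -3.25 ± 0.23 and -3.98 ± 0.23.

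The alternative branch and the terminal components gave fewer calls. CFP, the gene of properdin, which stabilises the alternative enzyme, had values of 5.73, 5.33 and 5.22 in untreated P2 cells, against 6.32, 6.05 and 6.56 in P0 cells (log2 difference -0.88 ± 0.17 SE, limma adjusted p = 0.000858). CFB, the gene of factor B, the substrate of factor D, had group means of 4.24 in untreated P2 cells and 4.18 in P0 cells, both under the control level. No call was made among the terminal genes C8B, C8G and C9 on their brightest probe sets. A second probe set of C8G was called lower, by 0.51 on the log2 scale (SE 0.21, limma adjusted p = 0.0496), with a P2 mean of 4.08 under the control level. C9, the pore-forming unit, had values of 5.41, 4.89 and 6.79 in untreated P2 cells, against 6.35, 7.33 and 6.61 in P0 cells, with a 95% confidence interval of the log2 difference from -2.42 to 0.28. C5 and C8A did not pass the filter.

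Regulators were also called lower. SERPING1, the gene of the C1 inhibitor that blocks C1r and C1s, had values of 11.10, 10.62 and 11.08 in untreated P2 cells, against 13.37, 13.74 and 13.70 in P0 cells (log2 difference -2.68 ± 0.18 SE, limma adjusted p = 1.71e-07). CLU, the gene of clusterin, which binds terminal complexes, differed by -1.60 ± 0.16. Of the membrane regulators, CD59, which blocks the membrane attack complex, differed by -1.07 ± 0.14 on 1 probe set and by -1.61 ± 0.17 on another. CD46, a cofactor for C3b cleavage, differed by -0.35 ± 0.14 on its brightest probe set (limma adjusted p = 0.0414), while its other 2 probe sets were not called. CD55, which dissociates the C3-cleaving enzymes, was at least 3.94-fold lower and CR1, the receptor for C3b and C4b, at least 3.04-fold lower. Neither had more than 1 P2 array over log2 4, and CR1 was uneven in P0 cells, at 4.43, 6.43 and 7.70.

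Receptors moved in both directions. VSIG4, a C3b receptor of resident macrophages, differed by -4.59 ± 0.36 (limma adjusted p = 4.73e-07), and ITGB2, a subunit of the complement receptors on leukocytes, by -1.29 ± 0.24. CD93, a surface protein of endothelial and myeloid cells once described as a C1q receptor, was the gene called higher. Its values were 9.91, 10.19 and 9.37 in untreated P2 cells, against 8.21, 8.20 and 8.33 in P0 cells. The groups did not overlap, and the log2 difference was 1.57 ± 0.19 (limma adjusted p = 1.51e-05).

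**Figure D2:**
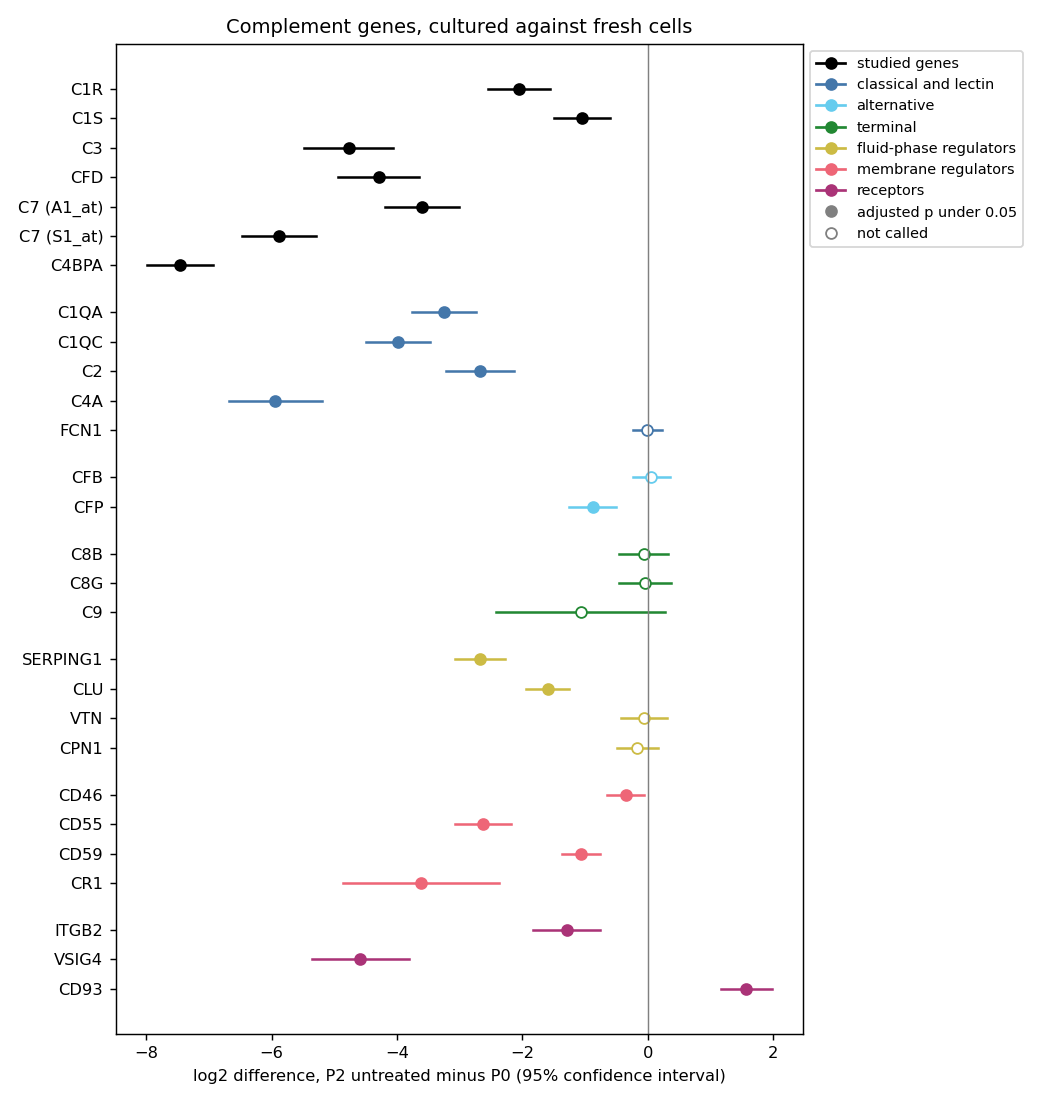
Log2 difference of untreated P2 minus P0 cells with its 95% confidence interval for the 7 studied probe sets and the 21 other complement genes tested, grouped by role. Filled points had a limma adjusted p under 0.05. All 7 studied probe sets and 13 other genes lie left of 0 with filled points, and CD93 is the filled point on the right. CD55 and CR1 are drawn at their fitted differences, although their P2 means lie under the control level.

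Markers of other cells were read on the same arrays. All 12 macrophage and monocyte markers, among them C1QA and C1QC, were called lower in untreated P2 cells, against 25.8% of all probe sets tested. Their median log2 difference was -3.15. Their mean level ran from 6.34 to 6.84 in untreated P2 cells, against 9.39 to 9.94 in P0 cells, and none had a group mean under the control level. All 5 markers of resting fibroblasts were called lower too, although 1 of them, SCARA5, passed the filter through the P0 arrays and so had to be lower. The 5 had a mean level from 6.86 to 7.15 in untreated P2 cells, against 11.95 to 11.99 in P0 cells. The 10 general fibroblast markers had a mean level from 12.25 to 12.41 in untreated P2 cells, against 12.96 to 13.01 in P0 cells. Of these 10, 7 were called lower and 3 were not called. All 3 myofibroblast markers, ACTA2, TAGLN and CNN1, were called higher, against 33.6% of all probe sets tested. Their mean level ran from 13.88 to 13.94 in untreated P2 cells, against 11.86 to 12.30 in P0 cells. The part of macrophages, resting fibroblasts or myofibroblasts in the lower complement mRNA was not tested.

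Most markers of liver, fat and blood cells were near or under the control level, with exceptions. The hepatocyte genes ALB, APOB, SERPINA1, TTR, FGB and HP had means under the control level in every group, and so had the adipocyte genes ADIPOQ, PPARG and LPL. The same held for the 3 neutrophil markers S100A8, S100A9 and S100A12 and for the 3 lymphocyte markers measured. Of the hepatocyte list, APOA1, an apolipoprotein gene, was high, with means of 10.85 in untreated P2 cells and 12.41 in P0 cells, and was called lower in P2 cells. TF, the transferrin gene, was called lower too, at 3.79 in untreated P2 cells and 6.29 in P0 cells, and passed the filter through P0 arrays. HBB, a globin gene of red blood cells, had means of 8.11 in untreated P2 cells and 8.88 in P0 cells (log2 difference -0.77 ± 0.12 SE, limma adjusted p = 0.000136). The adipocyte gene LEP had means of 6.34 in untreated P2 cells and 6.53 in P0 cells and was not called. FABP4, another adipocyte gene, had means of 4.31 in untreated P2 cells and 4.93 in P0 cells. Its P0 arrays ran from 3.27 to 6.31, and it was not called. PPARG was called lower, at 3.69 in untreated P2 cells and 4.17 in P0 cells, and passed the filter through the P0 arrays. The part of these cells in the complement differences was not tested.

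Genes of pathways known to regulate complement genes were read as a list of 14 tested genes, made up of cytokines, receptors, transcription factors and an inhibitor. In untreated P2 cells 11 were called lower than in P0 cells, 1 was called higher and 2 were not called. Over all probe sets tested, 25.8% were called lower and 33.6% higher. The 11 were all 5 cytokine genes, 4 of 6 transcription factor genes, the interferon receptor gene IFNGR1 and NFKBIA, the gene of a feedback inhibitor of NF-kB. TNF, an inflammatory cytokine, had values of 4.47, 4.35 and 4.07 in untreated P2 cells, against 10.44, 10.78 and 10.59 in P0 cells, and was at least 64.8-fold lower. IL1B, another inflammatory cytokine known to induce C3, differed by -5.24 ± 0.23 and IL1A by -4.76 ± 0.58. IRF1, an interferon-responsive transcription factor, differed by -5.27 ± 0.18 (limma adjusted p = 9.46e-10). The other transcription factor genes called were CEBPB (-1.09 ± 0.12), CEBPD (-1.08 ± 0.18) and FOXO1 (-1.13 ± 0.13). The gene called higher was the interleukin-1 receptor gene IL1R1, by 0.70 ± 0.19 (limma adjusted p = 0.00665).

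After 24 h, 4 of the 7 probe sets, those of C1R, C1S and C7, were called lower than in untreated P2 cells, against 4.22% of all probe sets tested. The 24 h arrays lay below all untreated arrays in 3 of 7, against 11.9% of all tested. The median log2 difference of the 7 was -0.98, against 0.01 over all tested. After 8 h none of the 7 was called lower by limma (0 of 7, and 0 of 7 at an unadjusted p under 0.05), against 2.53% of all probe sets tested, and their median was -0.39. At 8 h the groups overlapped in all 7, while 12.7% of all tested lay lower without overlap. Both comparisons share the untreated arrays. In all 7 probe sets the group means ran downward from untreated cells through 8 h to 24 h and lay below the P0 mean, an order found in 9.84% of all probe sets tested. Some steps were small, at -0.06 for C4BPA from untreated cells to 8 h and -0.07 for C3 from 8 h to 24 h. That C3 step was downward in 1 of 3 same-numbered pairs.

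P2 arrays that carried the same replicate number resembled each other across the 3 groups, and P0 arrays did not share this. Differences were therefore also taken within same-numbered arrays, with the number as a block in a fit of the 9 P2 arrays. With this block 5 of the 7 probe sets were called lower after 24 h, against 10.2% of all tested, and 2 of the 7 after 8 h, against 6.77% of all tested. The 5 were those of C1R, C1S, C3, CFD and the C7 probe set S1_at, and the 2 were C1R and C3. Taken pair by pair, 6 of the 7 probe sets were lower after 8 h in all 3 same-numbered pairs, against 28% of all tested, and 5 of the 7 after 24 h, against 23.6%. Between 24 h and 8 h the figure was 4 of 7, against 19.7%.

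C1R had values of 12.55, 11.88 and 12.46 in untreated cells, 12.23, 11.45 and 12.05 after 8 h, and 11.36, 10.79 and 11.12 after 24 h. The 24 h arrays lay below all arrays of the other P2 groups, and the 8 h arrays overlapped the untreated ones. After 24 h C1R was 2.31-fold lower than in untreated cells (log2 difference -1.21 ± 0.23 SE, limma adjusted p = 0.00744). After 8 h the difference was -0.39 (95% confidence interval -0.89 to 0.11), with a limma adjusted p of 0.436 and, with the replicate block, 0.0291. Each same-numbered pair differed by -0.44 to -0.32 after 8 h and by -1.34 to -1.09 after 24 h. Without the P2 arrays numbered 3 the 24 h difference was -1.14 and its limma adjusted p 0.0737.

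C1S had values of 12.62, 12.10 and 12.83 in untreated cells, 12.44, 11.85 and 12.44 after 8 h, and 11.38, 11.09 and 11.22 after 24 h. As for C1R, the 24 h arrays formed a separate low group. After 24 h C1S was 2.43-fold lower than in untreated cells (log2 difference -1.28 ± 0.20 SE, limma adjusted p = 0.00302), with pair differences from -1.61 to -1.01. After 8 h the difference was -0.27 (95% confidence interval -0.71 to 0.18, limma adjusted p = 0.583). C1S kept its 24 h call in all 15 alternative fits.

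The result for C7 differed between its probe sets. S1_at had values of 6.92, 5.91 and 6.72 in untreated cells, 6.14, 5.77 and 6.06 after 8 h, and 5.62, 5.21 and 5.26 after 24 h. Its 24 h arrays lay below all untreated arrays, with a log2 difference of -1.15 ± 0.27 SE, or 2.23-fold lower (limma adjusted p = 0.0221). A1_at had values of 8.65, 7.86 and 8.98 in untreated cells, 8.17, 7.79 and 8.08 after 8 h, and 7.64, 7.88 and 7.03 after 24 h. Here the groups overlapped, 1 of the 3 pairs was not lower, and the log2 difference was -0.98 ± 0.27 SE, or 1.98-fold lower (limma adjusted p = 0.0440, and 0.0595 with the replicate block). Leaving out the untreated array numbered 1 ended the call of both probe sets (adjusted p = 0.0888 for S1_at and 0.131 for A1_at). Leaving out the untreated array numbered 3 did so too (0.0893 and 0.165), as did leaving out the 24 h array numbered 3 (0.0599 and 0.128). Leaving out the 24 h array numbered 2 ended the call of S1_at (0.0713), and leaving out the 24 h array numbered 1 ended that of A1_at (0.0847). Without all 3 P2 arrays numbered 3 neither was called (0.183 for S1_at and 0.343 for A1_at).

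C3 had values of 8.70, 9.37 and 9.89 in untreated cells, 8.12, 8.71 and 9.27 after 8 h, and 8.18, 8.73 and 8.98 after 24 h. Replicate 1 was lowest and replicate 3 highest in each group, so the groups overlapped. Every treated array nonetheless lay below the untreated array of the same number. The log2 difference was -0.62 after 8 h (95% confidence interval -1.33 to 0.10, limma adjusted p = 0.379) and -0.69 after 24 h (-1.40 to 0.02, limma adjusted p = 0.239). With the replicate block the same differences had limma adjusted p-values of 0.00965 after 8 h and 0.00369 after 24 h. The pairs differed by -0.66 to -0.58 after 8 h and by -0.91 to -0.52 after 24 h.

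CFD had values of 8.71, 8.57 and 9.16 in untreated cells, 8.30, 8.32 and 8.90 after 8 h, and 7.64, 7.39 and 8.62 after 24 h. Replicate 3 was the highest array of each P2 group, and the 24 h array numbered 3 overlapped the untreated group. The log2 difference after 24 h was -0.93 ± 0.30 SE (limma adjusted p = 0.0790), and with the replicate block the adjusted p was 0.00393. Without the 24 h array numbered 3 the limma adjusted p was 0.00983. CFD was also called lower after 24 h when all P2 arrays numbered 3 were left out. After 8 h the difference was -0.30 (95% confidence interval -0.95 to 0.35, limma adjusted p = 0.696).

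C4BPA had values of 5.56, 6.04 and 6.30 in untreated cells, 5.65, 5.80 and 6.26 after 8 h, and 5.59, 5.86 and 5.68 after 24 h. The groups overlapped at both times. The log2 difference was -0.06 after 8 h (95% confidence interval -0.58 to 0.46, limma adjusted p = 0.949) and -0.25 after 24 h (-0.78 to 0.27, limma adjusted p = 0.599). The replicate block gave no call either.

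**Figure D3:**
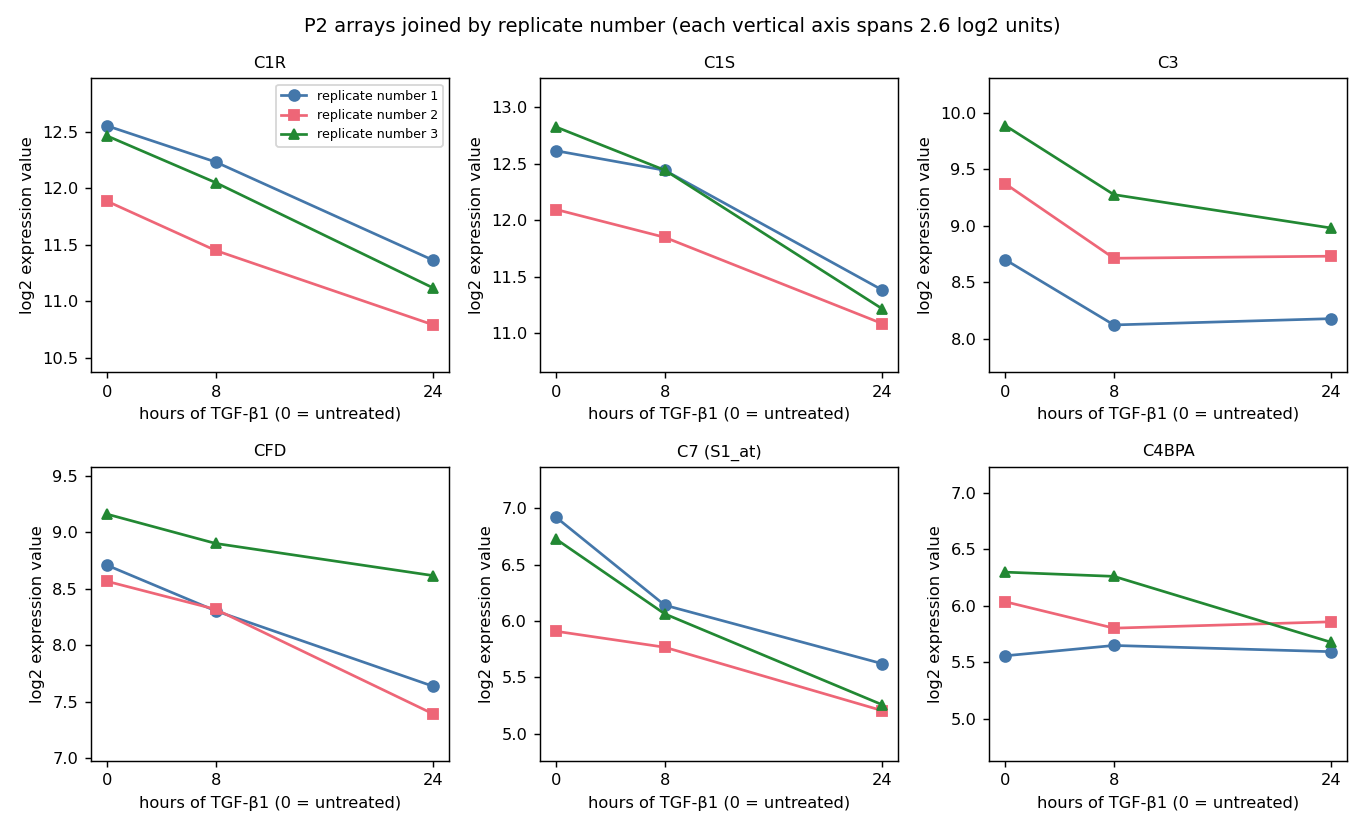
Log2 expression value of the complement genes in P2 cells against hours of TGF-β1 (0 is untreated), with arrays of the same replicate number joined. Each vertical axis spans the same number of log2 units. C7 is shown by its probe set S1_at only, and A1_at, whose result differed, is not drawn. The lines of C1R and C1S fall most between 8 h and 24 h, those of C3 between 0 and 8 h, and replicate 2 is the lowest line for C1R, C1S and the C7 probe set S1_at.

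The step between 8 h and 24 h was tested directly. No complement probe set was called lower at 24 h than at 8 h by limma (0 of 7, and 3 of 7 at an unadjusted p under 0.05), against 0.0907% of all probe sets tested. The 24 h arrays lay below all 8 h arrays in 3 of 7, those of C1R, C1S and C7 (S1_at), against 5.83% of all tested. With the replicate block C1R and C1S were called, 2 of 7 against 1.32% of all tested. C1S had a log2 difference of -1.02 (SE 0.20, limma adjusted p = 0.0797, and 0.0117 with the replicate block). C1R had a log2 difference of -0.82 (95% confidence interval -1.32 to -0.32, limma adjusted p = 0.248, and 0.00908 with the replicate block). For C3 the difference between 24 h and 8 h was -0.07 (95% confidence interval -0.79 to 0.64, limma adjusted p = 0.984). Whether the time course of C3 differs from that of C1R and C1S was not tested.

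Among the 21 other complement genes tested, 2 were called lower and 1 higher after 24 h of TGF-β1. Over all probe sets tested 4.22% were called lower and 4.27% were called higher. SERPING1, the inhibitor of C1r and C1s, had values of 11.10, 10.62 and 11.08 in untreated cells, 10.71, 10.19 and 10.70 after 8 h, and 10.24, 9.94 and 10.27 after 24 h. Its 24 h arrays lay below all untreated arrays (log2 difference -0.78 ± 0.18 SE, limma adjusted p = 0.0227). CD46 was lower by 0.58 on its brightest probe set (SE 0.14, limma adjusted p = 0.0217), and its other 2 probe sets were not called. CD93 was higher by 0.97 ± 0.19 (limma adjusted p = 0.00831). With the replicate block 3 were lower and 2 higher, the additions being VSIG4 and C9. Without the P2 arrays numbered 3 none of the 21 was called, and 1 was called when the untreated array numbered 1, the untreated array numbered 3 or the 24 h array numbered 2 was left out.

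After 8 h none of the 21 was called by limma (0 of 21, and 2 of 21 at an unadjusted p under 0.05), while the replicate block gave 3 lower and 1 higher, SERPING1, CD46, VSIG4 and CD93. The replicate block called 5.7% of all probe sets higher after 8 h and 9.77% after 24 h. CD93 was higher by 0.70 after 8 h, with a limma adjusted p of 0.0532, and of 0.0493 with the replicate block. The macrophage genes C1QA and C1QC were not called after 24 h, with log2 differences of -0.34 and -0.32. The 12 macrophage markers had a mean level from 6.34 to 6.84 in untreated cells, 6.08 to 6.65 after 8 h and 6.03 to 6.46 after 24 h, and 1 of the 12 was called lower at each time. With the replicate block 2 of the 12 were called lower after 8 h and 4 of the 12 after 24 h. Over all probe sets tested, 2.53% were called lower after 8 h and 4.22% after 24 h. With the replicate block these shares were 6.77% and 10.2%. The part of macrophages in the lower C1R, C1S and C7 mRNA was not tested.

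**Figure D4:**
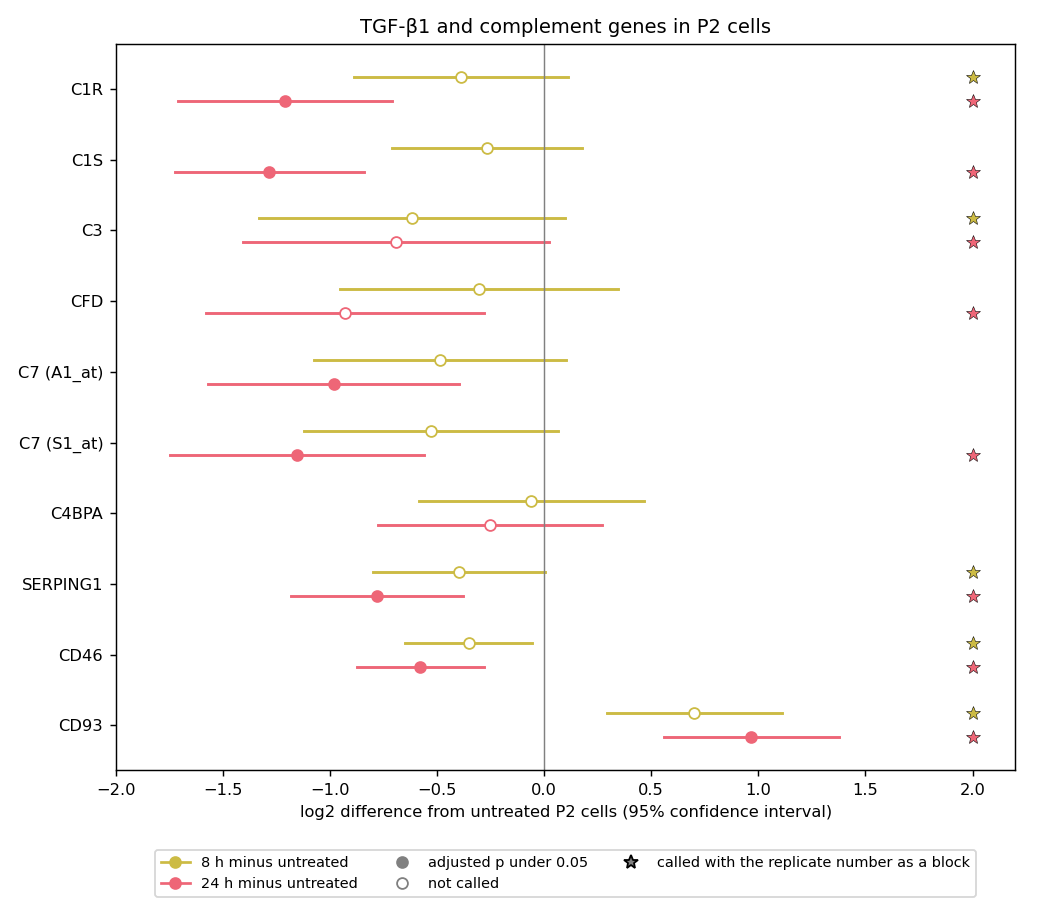
Log2 difference from untreated P2 cells after 8 h and 24 h of TGF-β1, with 95% confidence intervals, for the 7 studied probe sets and the 3 other complement genes called at 24 h. Filled points had a limma adjusted p under 0.05, and stars mark calls with the replicate number as a block; C1R, C1S, C7, SERPING1 and CD46 lie left of 0 with filled points at 24 h, and CD93 lies right.

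Of the same 14 regulatory genes, 4 were called lower and 1 higher after 8 h of TGF-β1, and 4 lower and 2 higher after 24 h. Those called lower were 2 transcription factor genes, IL1R1 and NFKBIA after 8 h, and 2 transcription factor genes, IL6 and NFKBIA after 24 h. With the replicate block the 24 h count was 6 lower and 2 higher, the additions being STAT3 (adjusted p = 0.0397) and IL1R1 (0.0251). Over all probe sets tested, 2.53% were called lower after 8 h, and 4.22% lower and 4.27% higher after 24 h. With the replicate block the 24 h shares were 10.2% lower and 9.77% higher. The 8 h counts were unchanged with the block, which called 6.77% of all probe sets lower and 5.7% higher. CEBPD, a transcription factor of the acute-phase response, had values of 12.43, 12.34 and 12.94 in untreated cells, 11.06, 10.93 and 11.28 after 8 h, and 11.57, 11.20 and 11.69 after 24 h. It was lower by 1.48 after 8 h (SE 0.18, limma adjusted p = 0.00143) and by 1.08 after 24 h (SE 0.18, limma adjusted p = 0.00355). IRF1 was called lower at both times, with values of 8.45, 8.06 and 8.46 in untreated cells, 7.36, 7.15 and 7.46 after 8 h, and 7.51, 7.02 and 7.73 after 24 h. IL1R1 had log2 differences of -0.93 ± 0.19 after 8 h (limma adjusted p = 0.0167) and -0.67 ± 0.19 after 24 h. NFKBIA had log2 differences of -0.90 ± 0.17 after 8 h and -1.02 ± 0.17 after 24 h. IL6, a cytokine known to raise liver complement genes, was called lower after 24 h, with a log2 difference of -1.05 ± 0.22 (limma adjusted p = 0.0124), and its difference after 8 h was -0.04. The step between 24 h and 8 h was not called for IL6 (limma adjusted p = 0.111). FOXO1 was called higher after 24 h, by 0.49 ± 0.13 (limma adjusted p = 0.0442). LIF, a relative of IL6, rose more, at least 4.44-fold after 8 h and at least 11.5-fold after 24 h.

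The complement genes differed in which replicate number was low. Replicate 2 was the lowest array in all 3 P2 groups for C1R, C1S and the C7 probe set S1_at, while replicate 1 was the lowest in all 3 for C3 and C4BPA. For CFD and the C7 probe set A1_at no number was lowest in all 3. The same number was lowest in all 3 groups for 31.8% of all probe sets tested. Over the 9 P2 arrays, which differ in treatment and replicate number, C1R correlated with C1S at 0.975 and with C7 (S1_at) at 0.958. The other C7 probe set, A1_at, correlated with C1R at 0.7995 and with C1S at 0.833. C3 correlated with C4BPA at 0.850, and C1R with C3 at 0.284 and with C4BPA at 0.253. CFD lay between, correlating with C1R at 0.732, with C1S at 0.764 and with C3 at 0.688. These are descriptions over 9 arrays, with no test.

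The genes most like each member over the same 9 arrays were found among 6013 other genes by Pearson correlation. For C1R they were FXYD7 (0.988), IFI35 (0.986) and FBLN1 (0.985), and for C1S they were RNASE4 (0.978), FXYD7 (0.977) and PDLIM1 (0.975). For C3 they were TMEM70 (0.941), UBP1 (0.935) and EID1 (0.934), and for CFD they were MTPN (0.988), CDCA3 (0.983) and DONSON (0.970). For C7 (A1_at) they were HSD17B7, ITM2B and IGBP1, from 0.936 to 0.948, and for C4BPA they were PRL, RAB1A and UBP1, from 0.930 to 0.949. Over all 12 arrays, where the gap between P2 and P0 cells dominates, the closest were CD82 for C1R (0.993), ANG for C1S (0.981), PTGDS for C3 (0.993), NFYC for CFD (0.993), ITM2B for C7 (0.993) and HTRA4 for C4BPA (0.998).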

How the data were processed

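The authors deposited log2 expression values, 1 column per array. GCRMA is named per the submitters' processing notes, and its version, the scan dates and the raw images were not given or not used here. Values were used as deposited and ran from 1.74 to 15.95, with array medians within 0.0734 of each other. Of 23999 probe sets, 64 array controls were left out, 10069 carried 1 gene symbol, 198 several and 13732 none. A probe set was tested if it exceeded log2 4 in at least 3 arrays, which left 17638. A gene was represented by its single-symbol probe set with the highest mean, except that all probe sets of the 6 complement genes were used.

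A linear model with 1 mean per group was fitted in limma 3.58.1 (R 4.3.3) over the 12 arrays, with 8 residual and 3.75 prior degrees of freedom. Tests were two-sided, and p-values were adjusted per comparison by the Benjamini-Hochberg method over all 17638. Standard errors and confidence intervals come from this fit. Where a group mean lay under 4.58, the fold is a lower bound taken from that level. The number of arrays limits the precision. The pipeline was tested on simulated data.

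The labels give replicate numbers but no pairing. Once group means were subtracted, the 9 same-numbered pairs of P2 arrays from different groups had correlations from 0.348 to 0.679, and pairs with different numbers from -0.51 to 0.08. Same-numbered P0 and P2 arrays correlated at -0.09 to 0.02. The P2 numbers were therefore taken to pair the samples, and blocked values are given for the complement genes, and as counts for the lists beside them, where they change a call. This pairing is inferred from the data.

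The complement members, the gene and marker lists and the tests were chosen with earlier results of these data known. Of the other complement genes, the called ones were named, with up to 4 others; of the regulatory genes, the rule was the 4 with the largest changes among those called, and the rest of those called were added later. No protein or promoter sequence was used here.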

Additional observations from a re-analysis of the deposited data

Results flagged for a closer look

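The effects of TGF-β1 at 24 h and at 8 h differed for C1S and C1R when same-numbered P2 arrays were compared with each other. C1S was lower at 24 h than at 8 h, with a log2 difference of -1.02 (SE 0.12, limma adjusted p = 0.0117 with the replicate block) and the same sign in 3 of 3 pairs. C1R had a log2 difference of -0.82 (SE 0.09, limma adjusted p = 0.00908 with the replicate block), also lower in 3 of 3 pairs. Without the block neither was called, at adjusted p-values of 0.0797 and 0.248.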

How the results depend on the processing

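All 7 complement probe sets kept their call and direction for P2 against P0 cells in each of the 14 alternative fits. After 24 h of TGF-β1 C1S kept its call in 15 of 15. The number of complement probe sets called after 24 h, 4, was 2 in a fit of the 2 groups alone and 2 without the 3 P2 arrays numbered 3 (C1S and CFD), an alternative chosen after seeing the data; leaving out single arrays gave 2 to 4. The count after 8 h, 0, became 2 with the replicate block in P2 arrays. The count for 24 h against 8 h, 0, became 1 with an intensity trend and robust prior, and 2 with the replicate block in 12 arrays and in P2 arrays. The replicate block in P2 arrays changed no calls of complement members beyond those given in the report.

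Of the other complement genes, 0 called after 8 h became 1 with a filter at log2 6, median centring, an intensity trend or the replicate block in 12 arrays, and 4 with the block in P2 arrays; leaving out single arrays gave 0 to 1. The 3 called after 24 h became 0 in the 2 groups alone, 5 with the block in P2 arrays, 0 without the arrays numbered 3, and 1 to 3 without single arrays.

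Over all probe sets, 894 were called after 8 h, with 519 in the 2 groups alone, 2200 with the block in P2 arrays, 265 without the arrays numbered 3 and 364 to 702 without single arrays. For 24 h, 1498 were called, with 631, 3519, 762 and 800 to 1347 in the same settings. For 24 h against 8 h, 41 were called, with 25 without a filter, 72 with an intensity trend, 0 in the 2 groups alone, 109 with the block in 12 arrays, 430 with it in P2 arrays, 12 without the arrays numbered 3 and 4 to 44 without single arrays. Removing arrays or groups leaves fewer degrees of freedom; the causes were otherwise not tested.

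Uncalled differences that changed sign were C4BPA after 8 h (-0.26 to 0.11 when single arrays were left out, positive without untreated replicate 3 and without 8 h replicate 1) and at 24 h against 8 h (0.00060 without the arrays numbered 3). C3 at 24 h against 8 h became 0.037 without the arrays numbered 3 and ran from -0.36 to 0.21 when single arrays were left out, positive without 8 h replicate 3 and without 24 h replicate 1. With 3 arrays per group, small differences could not be detected.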
